A study of Homo sapiens with 24 samples.

Results

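OGT, OGA, MAT2A, ARGLU1, LENG8, RBM39, LUC7L, LUC7L3, PABPC1L and AHSA2P are 10 genes whose RNA holds introns that are spliced out late or not at all. They were taken by name from 35579 genes measured, and all of their transcripts in both deposited tables were used. They were chosen by measured values: their transcript shares, their nuclear to cytoplasmic ratios and their responses to TAOK2 siRNA and to compound 2 were already known. Those values are therefore a description. Where a count of members called in limma is given for them, it stands beside the share of all features called and supports nothing. The tables list 162 transcripts of these genes among 188753, and 114 of the 162 had a mean of at least 1 TPM (a level per transcript length, scaled to the same total in every library) in 1 table or the other. By GENCODE type, 56 of the 162 are protein_coding, 41 are retained_intron, 27 are subject to nonsense-mediated decay and 38 are of other types. RBM39 has 45 of them and ARGLU1 has 4. OGA and PABPC1L have no transcript of the type retained_intron, although each has transcripts of other types that run into introns.

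All libraries came from A549, an established human lung adenocarcinoma line with the wild-type genotype in the labels. In the first of 2 experiments, RNA of whole cells was sequenced after a control siRNA pool, a siRNA pool against the protein kinase TAOK2, DMSO or the small molecule named compound 2, with 3 libraries a group in batches A, B and C. In the second, total, nuclear and cytoplasmic RNA was sequenced after the control pool or the TAOK2 pool, with 2 libraries a group in batches 1 and 2. The siRNA pools were used at 30 nM, and the labels state neither a dose nor a time for compound 2. The titles of all 4 whole-cell groups also carry the word mock. Polyadenylated RNA was sequenced in pairs of 150 bases. Nothing in the labels says that replicates were separate cultures, so p-values measure only the spread between these libraries. Values of replicates are given below in the order of their batches.

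TAOK2 itself was listed at 34.3 to 40.3 TPM with control siRNA and at 8.56 to 12.5 TPM with TAOK2 siRNA in whole cells. In nuclear RNA the ranges overlapped, at 9.31 to 15.6 TPM against 6.24 to 9.68 TPM. With compound 2 TAOK2 was at 20.5 to 30.7 TPM, under the 37.5 to 40.6 TPM with DMSO. The epithelial keratins KRT7, KRT8 and KRT18 were high throughout, while KRT19 was at 90.8 to 287 TPM in whole cells and at 0.0707 to 1.22 TPM in the fractionation libraries. The epithelial markers EPCAM and CDH1 differed the other way. EPCAM was at 3.72 to 12.2 TPM in whole cells and at 25.7 to 113 TPM in the fractionation libraries, and CDH1 at 4.26 to 25.7 TPM and 52.3 to 82.2 TPM. Of markers of other cell types, CD3E was at 0 everywhere, PTPRC reached at most 0.788 TPM and VWF at most 0.28 TPM, while CD68 was at 11.3 to 63.5 TPM and COL1A1 at 1.19 to 29.6 TPM. PECAM1, CDH5, COL3A1 and DCN reached at most 5.22, 1.66, 0.291 and 2.69 TPM. The fibroblast marker LUM was at 0.044 to 0.738 TPM in whole cells and at 6.26 to 44.7 TPM in the fractionation libraries. Mitochondrially encoded RNA made up 36.5% to 42.5% of TPM in the nuclear libraries and 8.10% to 13.9% in the cytoplasmic ones, and the part of this in the values below was not tested. Since TPM sums to the same total in every library, fewer cells of a type and less RNA per cell cannot be told apart. The 2 tables also differ by base composition: between total RNA of the second experiment and whole cells of the first, both with control siRNA, the median log2 difference went from 0.30 in the genes poorest in G and C to −1.34 in the richest, over 5 equal groups of genes. Levels are therefore compared within a table only.

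Detained introns are introns that stay in an otherwise finished, polyadenylated RNA and keep it in the nucleus. Such RNA can be spliced later, or be degraded without being translated. In OGT and MAT2A the step is known to answer to the product of the enzyme, O-linked N-acetylglucosamine on proteins and S-adenosylmethionine. Many genes of splicing factors hold such introns in their own RNA.

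The sites below come from transcripts that cross a 5′ splice site of the principal transcript, with all bases shown in a single exon. For each gene the site crossed by the highest of them in nuclear control RNA is shown, or the first where it crosses several. They are not always the highest transcripts with intron sequence: RBM39-236, LUC7L-217 and LUC7L3-202 were higher there than the transcripts shown for their genes. Each line gives 10 exon bases and 20 intron bases, 5′ to 3′ on the strand of the gene, from transcripts of GENCODE 29 on GRCh38. The first 6 intron bases are in capitals.
OGT-210, intron 4: agaagccaagGTAGGTgtttgatagaacac
OGA-210, intron 12: taaggatgagGTAATTgtctctctacctac
MAT2A-202, intron 8: tcattgtcagGTAAAGatggtaaagcctgt
ARGLU1-204, intron 2: agctagagagGTAACGctcggtcgtttgga
RBM39-223, intron 2: ttacaagaagGTGAGAaaaaacatgtcggt
LUC7L-203, intron 9: cgaaatacaaGTAACTactctgactccttc
LUC7L3-208, intron 10: tcagacagagGTAAGTgtattgtttctcac
LENG8-208, intron 15: tgatcaaaacGTATGTggtgccaagctccc
PABPC1L-207, intron 9: agaccttcctGTGAGTgacccagccccttc
AHSA2P-205, intron 6: tgtaaaggagGTAAGTaactccctaagcta

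Intron numbers count from the 5′ end of the principal transcript of each gene (the APPRIS principal isoform or, where there is none, the transcript with the most exons). Set against GTAAGT, searched on the gene's own strand at the first 6 intron bases only, 2 of the 10 sites matched at all 6 bases (LUC7L3 and AHSA2P), 5 matched at 5 bases and 3 at 4 bases (MAT2A, ARGLU1 and RBM39). Among 8722 introns that lie whole inside retained_intron transcripts of 3952 genes, 41.7% matched at 5 or 6 bases and 7.90% were GTAAGT. The 12 introns of 6 of the genes that lie in retained_intron transcripts in the same way are the like comparison: 41.7% of them matched at 5 or 6 bases, 8.33% were GTAAGT, and their median length was 648.5 bases. The 10 introns had a median length of 1452 bases, from 361 bases in AHSA2P to 3271 bases in OGT, beside a median of 244 bases over those 8722. A whole intron lies inside the named transcript in 7 of the 10, while the transcripts of MAT2A, OGA and LUC7L end inside theirs. The match is a description of these letters and says nothing of how a site is used.

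The type retained_intron misses transcripts of the other types that contain intron sequence. A wider class was therefore also used, chosen after the data had been seen: every transcript with at least 100 bases inside introns of the principal transcript, called intron-bearing below, to which 96 of the 162 transcripts belong. Only 29 of the 162 hold a whole intron of another transcript. The class therefore also takes in transcripts that merely start or end in an intron, and its share is not a measure of kept introns. For OGT both classes give the same share. For LENG8 the type retained_intron held at most 0.525% of the gene's TPM in any whole-cell library, and the intron-bearing class held 22.5% to 78.2%.

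All 10 genes had a higher level in the nuclear than in the cytoplasmic libraries. TPM is a level within each fraction, so it does not show which fraction held more of a gene's RNA. With control siRNA the log2 difference of the gene level, on log2(TPM + 1), ran from 2.53 ± 0.23 (SE, n = 2 a group) for OGA to 5.32 ± 0.44 for AHSA2P. The other 8 were MAT2A at 2.67, RBM39 at 2.81, ARGLU1 at 2.90, LUC7L3 at 3.16, LUC7L at 3.32, OGT at 4.08, LENG8 at 4.71 and PABPC1L at 5.17. In this order neighbours differ by less than the larger of their standard errors, except for the step from LUC7L to OGT. The members' median was 3.24 and the median of all 13751 genes tested was 0.21. All 10 passed an adjusted p of 0.05 in limma, as did 48.7% of all genes (29.8% higher and 18.9% lower), but this contrast was part of the choice of the genes and the count supports nothing. Centring each library on its median gene moved the members to between 2.15 and 4.94. Over all genes that centring changed the split from 4101 higher and 2598 lower in the nucleus to 2779 higher and 4095 lower.

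**Figure D1:**
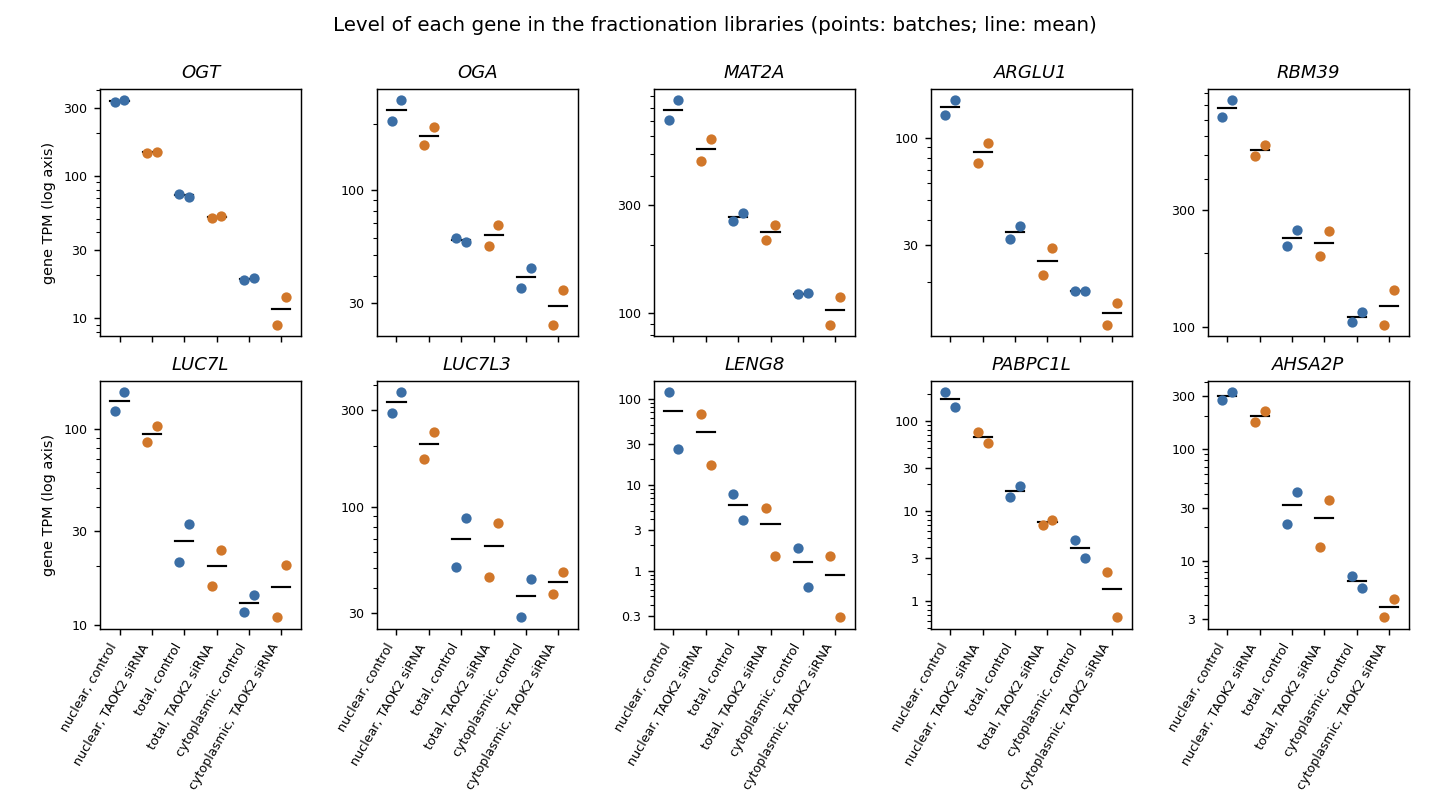
Gene level in TPM on a log axis for the 10 genes in nuclear, total and cytoplasmic RNA after control or TAOK2 siRNA, 1 point a library. For every gene both nuclear libraries lie above both cytoplasmic libraries of the same siRNA, as with OGT at 330 and 342 TPM against 18.6 and 19.1 TPM with control siRNA.

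Pooled over the genes, the intron-bearing transcripts had a higher nuclear to cytoplasmic ratio than the rest. Of 101 member transcripts with a mean of at least 1 TPM in the fractionation table, 68 were intron-bearing. Their median nuclear to cytoplasmic log2 difference was 3.40, and 64 of the 68 lay above 0. The 33 with fewer intron bases had a median of 1.60, and 26 of them lay above 0. Within single genes the median was higher for the intron-bearing transcripts in 9 of 10. OGT was the exception, with a median of 2.99 over its 3 intron-bearing transcripts and of 4.37 over its other 2, OGT-202 and OGT-205. In LENG8, LUC7L3 and MAT2A the median on 1 side is that of 1 transcript. A higher ratio of intron-bearing RNA was common over all genes. The intron-bearing odds were called higher in the nucleus in 51% of 11116 genes and lower in 3.15%, with a median of 1.33. Of the members 9 of 10 were called higher, with a median of 3.92. By type, 28 retained_intron transcripts had a median of 3.90, 32 protein_coding ones of 1.70, and 15 of the nonsense-mediated decay type of 1.95. Of the 101 transcripts, 73 were called higher in the nucleus and 1 lower, LUC7L-201, beside 44.6% of all 44109 transcripts called in either direction. Transcripts of a gene share most of their sequence and reads are divided between them by estimation, so they are not independent of each other.

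**Figure D2:**
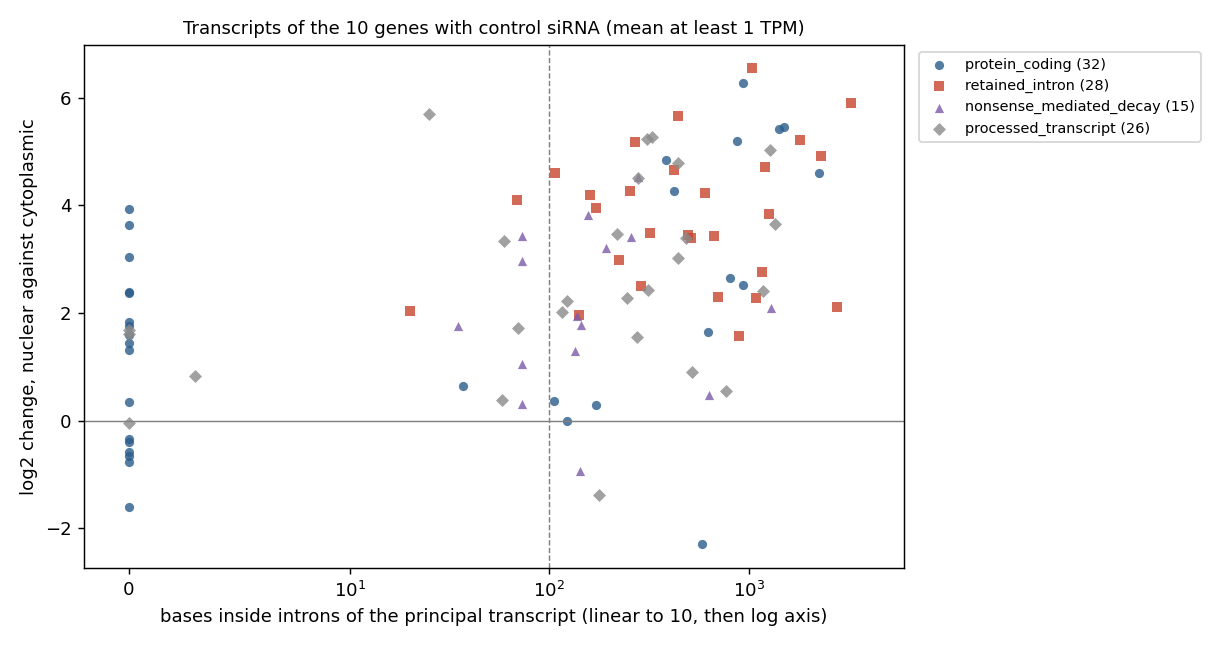
Nuclear to cytoplasmic log2 difference with control siRNA against the bases inside introns of the principal transcript (linear to 10, then a log axis), 1 point a transcript, with the marker giving its GENCODE type and the dashed line at 100 bases. The 68 transcripts right of the line have a median of 3.40 and the 33 others a median of 1.60.

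OGT (chrX:71533083-71575897, plus strand) encodes the only enzyme that adds O-linked N-acetylglucosamine to nuclear and cytoplasmic proteins. Its coding transcript OGT-202 was at 152 and 156 TPM in the nucleus and at 17.4 and 18.2 TPM in the cytoplasm with control siRNA. OGT-210, which keeps the whole of intron 4 (chrX:71544636-71547906, with its printed site at chrX:71544626-71544655), was at 120 and 113 TPM in the nucleus and at 1.05 and 0.898 TPM in the cytoplasm. The fractions did not overlap for either transcript, and the log2 difference was 3.04 ± 0.21 for OGT-202 and 5.89 ± 0.17 for OGT-210. Retained_intron transcripts were 39.2% and 37.8% of nuclear OGT RNA and 6.13% and 4.7% of the cytoplasmic, while coding transcripts were 93.5% and 95.3% of the cytoplasmic. The printed site of OGT-210 matches GTAAGT at 5 of 6 bases.

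With compound 2 the level of OGT as a whole was 95, 107 and 66.9 TPM beside 101, 87.4 and 83.2 TPM with DMSO, and the groups overlapped. Its transcripts differed in direction. OGT-202 was at 19.4, 21.6 and 17.7 TPM beside 29.8, 26.4 and 28.9 TPM, without overlap, a log2 difference of −0.52 ± 0.09. OGT-210 overlapped between the groups, at 56.3, 62.3 and 41.7 TPM beside 53.4, 44.2 and 40.6 TPM. The retained_intron share was 68.9%, 68.3% and 68.7% beside 56.9%, 53.9% and 52.1%, higher in every library. OGT-205, a short processed transcript that starts in an intron, was at 5.67, 7.25 and 1.78 TPM beside 11.9, 13 and 10.2 TPM.

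OGA (chr10:101784443-101818465, minus strand) encodes the enzyme that takes the same sugar off. Its principal coding transcript OGA-202 was at 81.2 and 94.6 TPM in the nucleus and 27.8 and 36.1 TPM in the cytoplasm. OGA-210, which runs into intron 12 (chr10:101791440-101792838, printed site at chr10:101792819-101792848) and ends there, was at 35.9 and 67.8 TPM against 0.43 and 0.174 TPM. OGA-207, another processed transcript with intron sequence, was at 33.1 and 34.2 TPM against 0.464 and 0.0851 TPM. Intron-bearing transcripts made up 46.3% and 53.4% of nuclear OGA RNA and 4.38% and 1.27% of the cytoplasmic. As with OGT, intron-bearing RNA was a small share of the cytoplasmic RNA of the gene.

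With compound 2, OGA-202 was at 19.2, 20.3 and 18.8 TPM beside 60, 54.1 and 49.5 TPM with DMSO, a log2 difference of −1.44 ± 0.08. OGA-203, a transcript of the coding type with 934 bases in an intron, was at 27.4, 35.1 and 22.1 TPM beside 13.5, 11.7 and 9.04 TPM, a log2 difference of 1.23 ± 0.18. The groups did not overlap for either transcript, and the directions were opposite. The intron-bearing share of OGA was 54.4%, 57.1% and 50.3% beside 24.6%, 25.9% and 20.8%. At the gene level OGA was at 72.5, 92.6 and 61.9 TPM beside 98.1, 93.8 and 83.6 TPM, a log2 difference of −0.29 ± 0.12 that turned to 0.22 when libraries were centred on their median gene.

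MAT2A (chr2:85539165-85545280, plus strand) encodes the catalytic subunit of the methionine adenosyltransferase that makes S-adenosylmethionine outside the liver. Its fully spliced transcript MAT2A-201 was at 384 and 422 TPM in the nucleus and at 119 and 119 TPM in the cytoplasm. MAT2A-202 ends inside the last intron, intron 8 (chr2:85543035-85543669, printed site at chr2:85543025-85543054), and was at 191 and 255 TPM against 2.04 and 1.67 TPM. The log2 difference was 1.75 ± 0.17 for MAT2A-201 and 6.28 ± 0.27 for MAT2A-202. Though typed protein_coding, MAT2A-202 stood with the retained_intron transcripts in this ratio: MAT2A-205 had 5.67, MAT2A-204 had 4.28 and MAT2A-203 had 3.95. The intron-bearing share was 45.3% and 51.2% in the nucleus and 2.25% and 2.5% in the cytoplasm.

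Compound 2 left the MAT2A gene level overlapping with DMSO, at 164, 236 and 140 TPM beside 190, 187 and 179 TPM. The intron-bearing share was 24.9%, 30.6% and 22.2% beside 41.7%, 40.6% and 38.4%, so for MAT2A it was lower in every library where for OGT and OGA it was higher. MAT2A-202 was at 30.9, 50 and 21.8 TPM beside 58.1, 52.9 and 48.9 TPM. Only its second compound 2 library reached the range of DMSO. MAT2A-201 overlapped, at 123, 164 and 109 TPM beside 111, 111 and 110 TPM.

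ARGLU1 (chr13:106541673-106568164, minus strand) encodes an arginine and glutamate rich protein that modulates splicing. ARGLU1-204 keeps the whole of intron 2 (chr13:106557132-106559431, printed site at chr13:106559412-106559441), and was at 120 and 144 TPM in the nucleus and at 2.8 and 4.06 TPM in the cytoplasm. ARGLU1-203, the principal transcript without it, was at 5.66 and 5.69 TPM against 7.73 and 7.16 TPM. Its log2 difference of −0.34 ± 0.21 was among the 10 of 101 that lay below 0. Retained_intron RNA was 92.5% and 94.7% of nuclear ARGLU1 and 15.6% and 22.6% of cytoplasmic ARGLU1.

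With compound 2, ARGLU1-203 was at 46, 24.7 and 42.2 TPM beside 5.26, 5.63 and 5.6 TPM with DMSO, a log2 difference of 2.52 ± 0.18. ARGLU1-204 overlapped between the groups, at 38.6, 52.1 and 35.9 TPM beside 42.5, 40.7 and 37.4 TPM. The gene level was 99.2, 86.4 and 94.8 TPM beside 50.1, 49 and 45.9 TPM, and the retained_intron share was 38.9%, 60.4% and 37.8% beside 84.8%, 83% and 81.6%. In the second compound 2 library the rise of ARGLU1-203 was the smallest of the 3, and TAOK2 was the highest of the 3 there, at 30.7 TPM. These are values of a single library, and a link between them was not tested. Without that library no member changed direction at the gene level with compound 2.

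RBM39 (chr20:35701347-35742312, minus strand) encodes a splicing factor related to the large subunit of U2AF. Its RNA was spread over 37 transcripts with a mean of at least 1 TPM. In the nucleus the largest was RBM39-236, of the nonsense-mediated decay type with 156 bases in an intron, at 202 and 208 TPM against 12.9 and 14.2 TPM in the cytoplasm. RBM39-223 keeps the whole of intron 2 (chr20:35739018-35740823, printed site at chr20:35740804-35740833), and was at 64.7 and 83.5 TPM against 0.654 and 1.46 TPM. RBM39-201, the principal coding transcript, was at 15.2 and 23.7 TPM against 29.2 and 37.1 TPM. RBM39-201 and RBM39-221 were listed at 0 in all 12 whole-cell libraries, while RBM39-204 was at 122, 82.7 and 98.8 TPM there with DMSO and at 8.01 and 2.63 TPM in nuclear RNA, so the estimated split between these overlapping transcripts differs between the tables. Whether both tables were quantified in the same way was not tested. Summed over the class, intron-bearing RNA was 76.4% and 78.4% of nuclear RBM39 and 32.9% and 31.5% of cytoplasmic RBM39.

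With compound 2 the coding share of RBM39 RNA was lower and the intron-bearing share higher. Of its 45 transcripts 30 are intron-bearing and 2 hold a whole intron, so this is not a measure of kept introns. RBM39-204 was at 67.7, 56.3 and 42.3 TPM beside 122, 82.7 and 98.8 TPM with DMSO. RBM39-224, a processed transcript with 518 bases in an intron, was at 71.3, 67 and 48.2 TPM beside 6.93, 5.32 and 5.35 TPM, a log2 difference of 3.19 ± 0.16. RBM39-236 was at 38.1, 57.8 and 31.6 TPM beside 11.1, 11 and 9.18 TPM. None of these 3 overlapped. The intron-bearing share was 72.6%, 78.1% and 74% beside 27%, 28.3% and 25.8%, and the coding share 17.8%, 13.2% and 18.6% beside 52.4%, 44.1% and 52.7%. RBM39-223 differed little, at 16.8, 23.2 and 13.4 TPM beside 14, 15.3 and 10.5 TPM, and these groups overlapped. The gene level was 404, 478 and 313 TPM beside 349, 284 and 286 TPM, with overlap, and its log2 difference of 0.36 ± 0.13 was 0.22 and no longer called without the second compound 2 library.

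LUC7L (chr16:188969-229463, minus strand) and LUC7L3 (chr17:50719544-50756213, plus strand) encode proteins that attach to the U1 particle, which recognises 5′ splice sites. In LUC7L, the principal coding transcript LUC7L-201 was listed at 0 in both nuclear control libraries and at 2.55 and 1.61 TPM in the cytoplasm. LUC7L-203, which runs into intron 9 (chr16:189340-189967, printed site at chr16:189948-189977), was at 20.6 and 25.5 TPM in the nucleus against 0.238 and 0.251 TPM. LUC7L-217, of the type retained_intron, was at 34 and 42.9 TPM against 0.435 and 0.567 TPM. The intron-bearing share of LUC7L was 95.2% and 98% in the nucleus and 58.5% and 62.6% in the cytoplasm.

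In LUC7L3 most intron-bearing RNA is typed protein_coding or nonsense-mediated decay, and the type retained_intron held at most 5.1% of the gene's TPM in any library. LUC7L3-202 was at 109 and 127 TPM in the nucleus against 1.94 and 2.58 TPM in the cytoplasm. LUC7L3-208, with the whole of intron 10 (chr17:50750695-50752199, printed site at chr17:50750685-50750714), was at 92.7 and 129 TPM against 1.3 and 1.76 TPM. LUC7L3-201, without intron sequence, was at 15.7 and 14.9 TPM against 19.5 and 28.3 TPM. The intron-bearing share was therefore 94% and 94.4% against 31.8% and 35.6%.

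The paralogs lay on opposite sides of DMSO with compound 2. LUC7L3 was at 386, 428 and 337 TPM beside 168, 148 and 140 TPM with DMSO, the highest log2 difference among the 10 genes at 1.33 ± 0.11. LUC7L was at 32, 45.4 and 31.5 TPM beside 58.9, 61.5 and 55.5 TPM, a log2 difference of −0.69 ± 0.12. For neither gene did the groups overlap. In LUC7L3 the spliced and the intron-bearing transcripts were higher together: LUC7L3-201 was at 174, 133 and 155 TPM beside 57.2, 46.7 and 47.7 TPM, and LUC7L3-202 at 91.5, 130 and 71.6 TPM beside 50, 43.1 and 39.7 TPM. Its intron-bearing share overlapped, at 54%, 68.2% and 53.5% beside 65.6%, 67.6% and 64.2%. In LUC7L that share was 25.4%, 29.2% and 21.2% beside 35%, 38.3% and 35.3%, lower in every library.

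LENG8 lies at chr19:54448887-54462037 on the plus strand. In whole cells with DMSO its largest transcript was LENG8-208, which keeps the whole of intron 15 (chr19:54458522-54460765, printed site at chr19:54458512-54458541), at 22.5, 27.4 and 20.6 TPM. With compound 2 it was at 0.445, 9.87 and 0 TPM. LENG8-201, the principal transcript, was at 30.6, 28.7 and 26.7 TPM beside 5.83, 3.6 and 3.09 TPM, and LENG8-204 at 17.6, 18.2 and 16 TPM beside 0.927, 0.693 and 0.828 TPM. The groups did not overlap for any of the 3. The intron-bearing share was 22.5%, 37.8% and 24.6% beside 71.3%, 77.9% and 72.8%, and the gene level 93.5, 104 and 78.2 TPM beside 47.7, 49.2 and 42.8 TPM. As with ARGLU1, the second compound 2 library lay nearest to DMSO in this share.

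The fractionation values of LENG8 were the least even of the 10. Its nuclear level with control siRNA was 119 and 25.8 TPM, a log2 difference of −2.16 between batch 2 and batch 1, and its cytoplasmic level was 1.84 and 0.647 TPM. LENG8 transcripts have 61.6% G and C, in the richest of the 5 groups of genes, where the median gene differed by −0.48 between the same nuclear libraries. In total RNA it was at 7.8 and 3.87 TPM. The 38.8 to 48.5 TPM in whole cells with the same siRNA is from the other experiment and is not a like comparison. Between those 2 kinds of library the median gene of the same group differed by −1.34 (total RNA minus whole cells, log2). LENG8-208 was at 75.5 and 11.9 TPM in the nucleus against 0.662 and 0 TPM in the cytoplasm. The part of base composition in these values was not tested.

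PABPC1L (chr20:44910062-44959035, plus strand) encodes a relative of the cytoplasmic poly(A) binding protein, best known from oocytes. PABPC1L-207, typed protein_coding, keeps the whole of intron 9 (chr20:44932433-44933071, printed site at chr20:44932423-44932452), and was at 99 and 73.8 TPM in the nucleus against 1.19 and 0.872 TPM in the cytoplasm. The gene had 208 and 143 TPM in the nucleus against 4.76 and 3.01 TPM. With compound 2 it was the lowest of the 10 relative to DMSO, at 12.3, 14.7 and 11.9 TPM beside 34.8, 29.9 and 31.6 TPM, a log2 difference of −1.25 ± 0.10. PABPC1L-207 went the same way as the gene, at 4.06, 5.38 and 3.98 TPM beside 10.5, 10.2 and 9.6 TPM.

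AHSA2P (chr2:61177418-61191203, plus strand) is annotated as a pseudogene of the family of HSP90 co-chaperone activators and has no coding transcript. AHSA2P-205, with the whole of intron 6 (chr2:61185619-61185979, printed site at chr2:61185609-61185638), was at 145 and 187 TPM in the nucleus against 0.987 and 0.58 TPM in the cytoplasm, a log2 difference of 6.55 ± 0.53. Intron-bearing RNA was 95.9% and 98.1% of the nuclear RNA of the gene and 60.1% and 88.4% of the cytoplasmic. With compound 2 the gene was at 23, 25.2 and 21.7 TPM beside 40, 43 and 35.3 TPM. Its intron-bearing share was 89.3%, 90.8% and 92.5% beside 85%, 84.5% and 86.1%, so the level was lower and the share higher in every library.

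**Figure D3:**
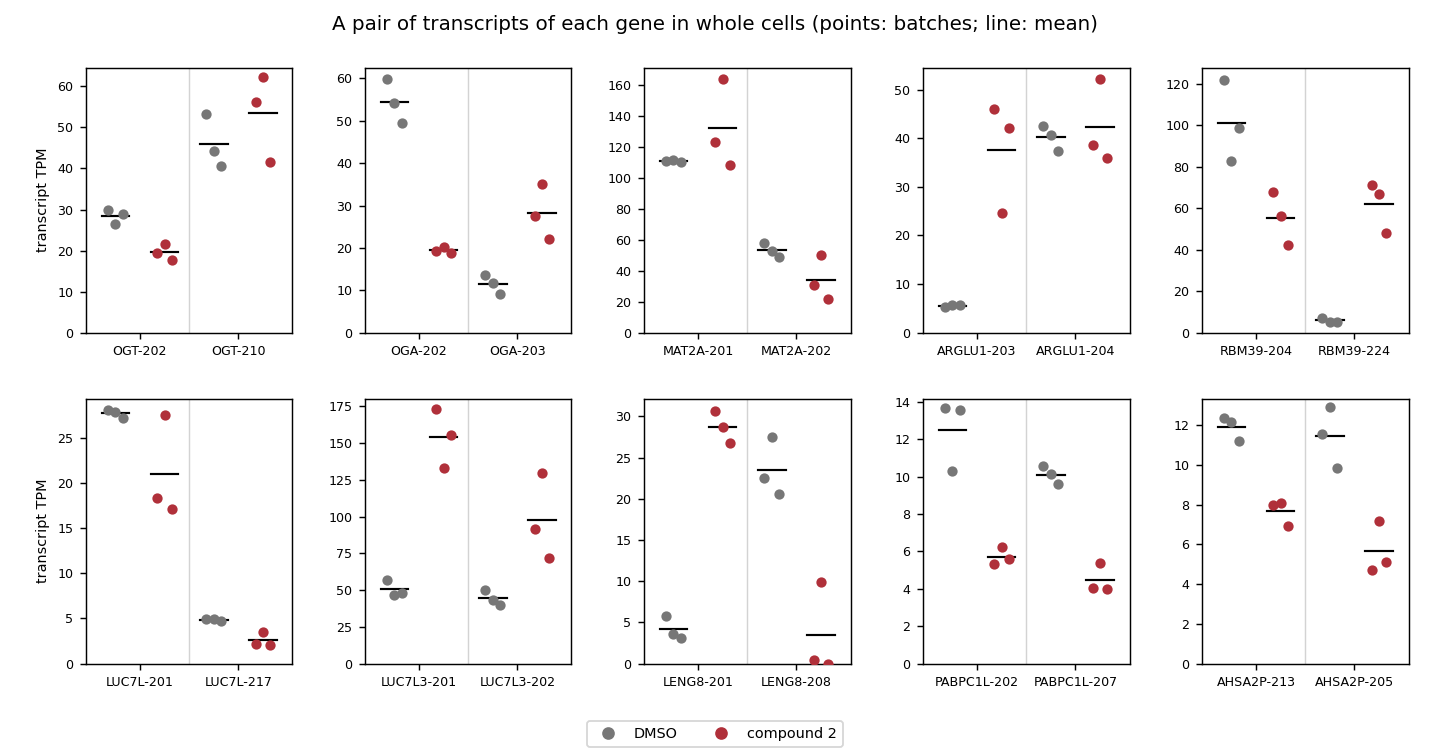
Transcript level in TPM with DMSO and with compound 2 for a pair of transcripts of each gene, 1 point a library and a line at the mean. OGA-202 and LENG8-208 lie lower and ARGLU1-203, RBM39-224, LENG8-201 and LUC7L3-201 lie higher with compound 2 in all 3 libraries.

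At the gene level, the balance of the 10 genes with compound 2 depended on the scaling. Without centring, LUC7L3, LENG8, ARGLU1 and RBM39 were called higher and OGA, LUC7L, AHSA2P and PABPC1L lower, which makes 8 of 10, beside 63.7% of all 13106 genes tested (12% higher and 51.8% lower). Without the second compound 2 library MAT2A was called lower, at −0.29 in place of −0.08, and OGT was at −0.18 in place of −0.04. The OGA call was lost without the DMSO library of batch A or B or the compound 2 library of batch A or C, where it lay between −0.16 and −0.28, and the RBM39 call also without the DMSO library of batch B or C or the compound 2 library of batch A. The members' median was −0.06 and that of all genes −0.31. After centring each library on its median gene, 7 were called higher and 1 lower. OGT, MAT2A and OGA were then called higher at 0.47, 0.43 and 0.22, LUC7L and AHSA2P were no longer called at −0.18 and −0.22, and PABPC1L was called lower at −0.74. Over all genes that centring changed the split from 1571 higher and 6783 lower to 5662 higher and 3189 lower.

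The odds of retained_intron against the remaining transcripts of a gene were called changed in 5 of 8 members, beside 42.5% of 7254 genes (23.2% higher and 19.3% lower). They were higher for RBM39 at 1.38 ± 0.19 and OGT at 0.87 ± 0.14 (log2), and lower for ARGLU1 at −2.49 ± 0.27, LENG8 at −0.70 ± 0.17 and MAT2A at −0.69 ± 0.17. The LENG8 call does not show a lower share. Its retained_intron share overlapped, at 0.297% to 0.427% beside 0.317% to 0.525% with DMSO. Its retained_intron level was higher with compound 2, at 0.232 to 0.399 TPM beside 0.156 to 0.224 TPM. These levels lie under the TPM added to both parts of the odds, so the odds of LENG8 mostly follow its other transcripts. With the intron-bearing class 9 of 10 were called, beside 44.9% of 10774 genes (30.1% higher and 14.8% lower). On that class RBM39 at 3.01 ± 0.17, OGA at 1.89 ± 0.17, OGT and AHSA2P were higher, and LENG8 at −2.83 ± 0.27, ARGLU1 at −2.50 ± 0.28, MAT2A, LUC7L and PABPC1L were lower. At the transcript level 31 of 85 member transcripts were called higher and 30 lower, 61 in all, beside 51.3% of 43418 transcripts (12.4% higher and 38.9% lower).

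**Figure D4:**
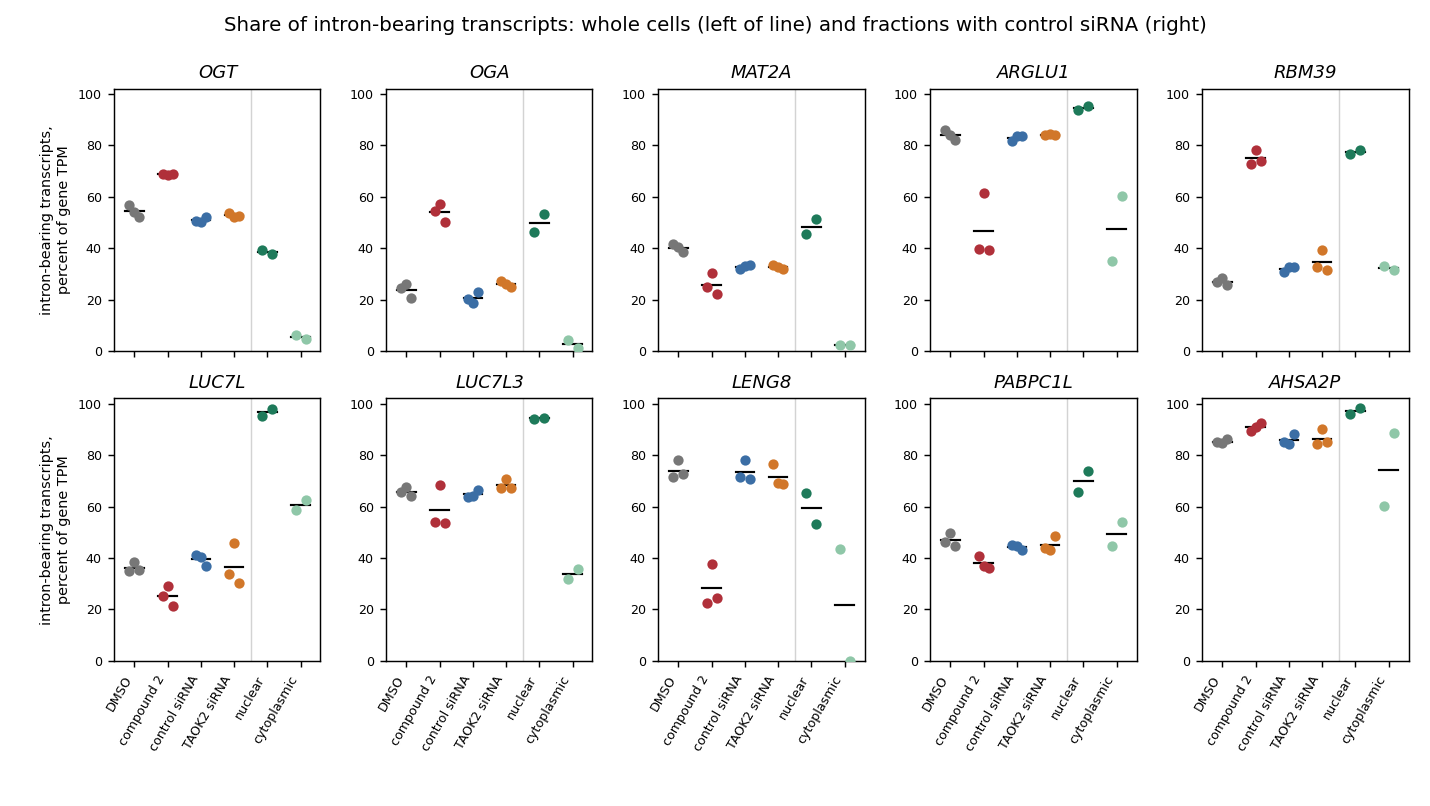
Share of each gene's TPM in intron-bearing transcripts, in percent, for the 12 whole-cell libraries by group and, right of the line, for nuclear and cytoplasmic RNA with control siRNA. Points are libraries and lines are means. With compound 2 the share lies above all DMSO libraries for OGT, OGA, RBM39 and AHSA2P, below them for MAT2A, ARGLU1, LENG8, LUC7L and PABPC1L, and overlaps for LUC7L3.

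In whole cells TAOK2 siRNA went with a lower level of RBM39 and PABPC1L. RBM39 was at 212, 219 and 208 TPM beside 291, 293 and 259 TPM with control siRNA, a log2 difference of −0.40 ± 0.13. PABPC1L was at 21.5, 21.5 and 22.2 TPM beside 28.8, 24.7 and 29.8 TPM, −0.34 ± 0.10. For both genes the groups did not overlap, beside 29.7% of all genes with all libraries lower. These were the 2 of 10 members called at the gene level, beside 22.2% of all genes (7.78% higher and 14.4% lower), and leaving out any single library of these groups took at least 1 of the 2 calls away. The other 8 members lay between −0.07 and 0.11. OGT was at 77.9, 82 and 78.2 TPM beside 76, 73.1 and 73.4 TPM, higher without overlap, as were 18% of all genes.

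No member was called for its retained_intron odds, beside 0.648% of genes (0.496% higher and 0.152% lower), or for its intron-bearing odds, beside 0.371% (0.297% higher and 0.0743% lower). At an unadjusted p under 0.05 no member passed for the retained_intron odds, beside 12.7% of genes, and 1 of 10 for the intron-bearing odds, beside 13.4%. That was OGA, at 0.45 ± 0.17. Its intron-bearing share was 27.4%, 26.1% and 24.9% beside 20.1%, 18.5% and 23%. Of 85 member transcripts none was called, beside 5.2% of all transcripts (1.62% higher and 3.58% lower), and 11 had an unadjusted p under 0.05, beside 20.2% of all transcripts. With the batch as a block 1 was called, RBM39-216, at 38.2, 38.6 and 35.9 TPM beside 53.9, 48.7 and 49 TPM.

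In nuclear RNA all 10 genes had a lower mean level after TAOK2 siRNA than after control siRNA. OGT was at 146 and 148 TPM beside 330 and 342 TPM, PABPC1L at 76 and 57 TPM beside 208 and 143 TPM, and ARGLU1 at 75.8 and 94 TPM beside 130 and 153 TPM. MAT2A was at 468 and 583 TPM beside 702 and 865 TPM. The log2 differences ran from −0.39 ± 0.23 for OGA to −1.38 ± 0.34 for PABPC1L, with OGT at −1.19 ± 0.19. Their median was −0.64, and the median over all genes was −0.05.

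For 9 of the 10 genes the nuclear libraries of the 2 siRNAs did not overlap, beside 22.7% of all genes with both TAOK2 siRNA libraries below both control libraries. LENG8 was the exception, because its control libraries were at 119 and 25.8 TPM and its TAOK2 siRNA libraries at 65.6 and 17.1 TPM. None of the 10 was called by limma, beside 0.0145% of all genes (2 of 13751, both higher). At an unadjusted p under 0.05, 5 of the 10 passed, beside 9.66% of genes. With the batch as a block, a fit added after the data had been seen, 6 of the 10 were called lower (OGT, PABPC1L, ARGLU1, LUC7L3, MAT2A and RBM39), beside 5.9% of all genes called and 3.13% called lower. The response to TAOK2 siRNA was part of the choice of the genes. The fibroblast marker LUM moved with the same groups, at 6.26 to 6.87 TPM with control siRNA and 23.9 to 25 TPM with TAOK2 siRNA, and its part was not tested. In the same libraries retained_intron transcripts of all genes together made up 9.01% to 9.91% of matched TPM with control siRNA and 7.47% to 8.15% with TAOK2 siRNA.

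Several transcripts followed this order. OGT-210 was at 42.6 and 41.9 TPM in the nucleus with TAOK2 siRNA beside 120 and 113 TPM, and OGT-202 at 92.5 and 87.6 TPM beside 152 and 156 TPM. OGT-205 was at 0.0182 and 6.78 TPM beside 46.9 and 55.4 TPM. LUC7L3-202 was at 54.2 and 72.7 TPM beside 109 and 127 TPM, while LUC7L3-201 was at 28.3 and 32.6 TPM beside 15.7 and 14.9 TPM. LUC7L3 had the lowest difference of the intron-bearing odds in nuclear RNA, −1.61 ± 0.35, with shares of 82.7% and 85.3% beside 94% and 94.4%. In this contrast limma called 0 of 44109 transcripts, and 0 of 11116 genes for the intron-bearing odds. The median difference of those odds was −0.29 for the members, near the −0.25 of all genes.

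In total RNA 4 of 10 members had both TAOK2 siRNA libraries below both control libraries, beside 15.7% of all genes. In cytoplasmic RNA 6 of 10 did, beside 18.6%. In the cytoplasm OGT was at 8.93 and 14.1 TPM beside 18.6 and 19.1 TPM. RBM39, LUC7L and LUC7L3 had differences above 0 there, at 0.13, 0.21 and 0.25. The nuclear to cytoplasmic ratio itself did not pass the test of a difference between the siRNAs for any member or any gene, where limma left 0 of 13751 called and 184 had an unadjusted p under 0.05. For the members that difference ran from −0.94 ± 0.53 in LUC7L3 to 0.06 ± 0.63 in AHSA2P. These contrasts share their libraries, so they are not separate evidence of each other.

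**Figure D5:**
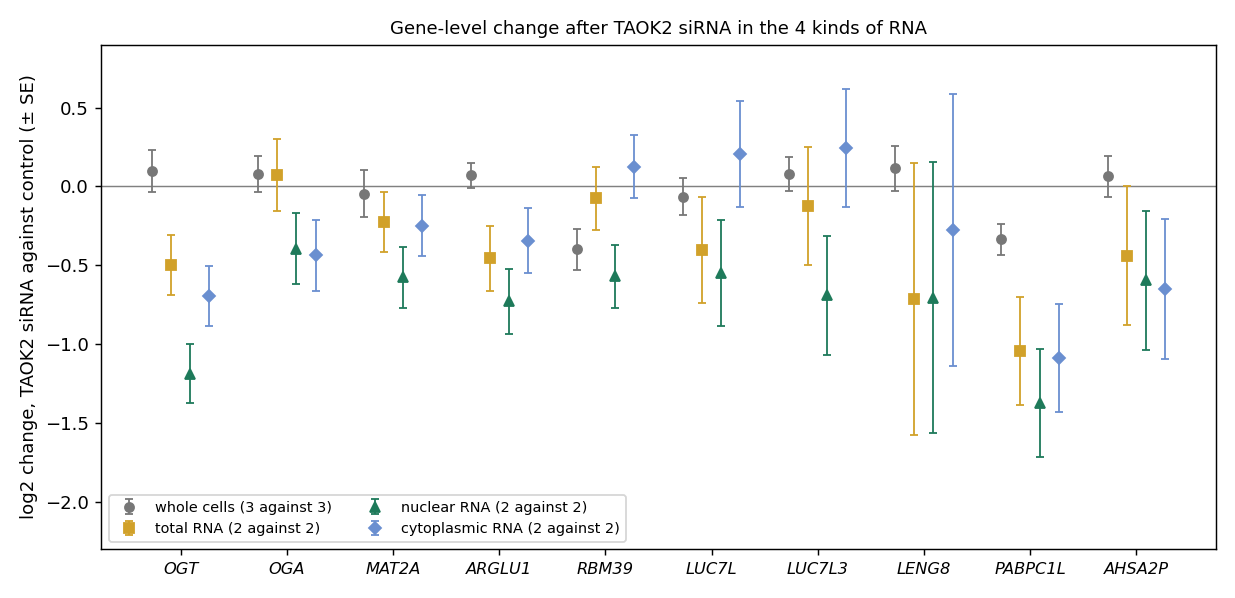
Log2 difference of TAOK2 siRNA against control siRNA at the gene level, with SE, for the 10 genes in whole cells and in total, nuclear and cytoplasmic RNA. In nuclear RNA all 10 lie below 0, from −0.39 for OGA to −1.38 for PABPC1L, while in whole cells 8 of the 10 lie between −0.07 and 0.11.

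Control siRNA against DMSO was not used to choose the genes, and it was tested. No member was called at the gene level by limma with Benjamini-Hochberg adjustment, beside 6.43% of 13106 genes (4.32% higher and 2.11% lower), and the smallest adjusted p was 0.249. The log2 differences ran from −0.28 ± 0.13 for OGT to 0.13 ± 0.15 for MAT2A, and no member had an unadjusted p under 0.05. For the retained_intron odds the smallest adjusted p of a member was 0.704, with 0 of 7254 genes called and 607 at an unadjusted p under 0.05. For the intron-bearing odds it was 0.458. The largest difference of the intron-bearing odds was that of MAT2A, −0.46 ± 0.16, with shares of 31.9%, 33.2% and 33.4% beside 41.7%, 40.6% and 38.4% with DMSO. It was the 1 gene of 10 with an unadjusted p under 0.05 for these odds, beside 8.21% of genes. Of the 85 member transcripts none was called, beside 0.472% of all transcripts (0.313% higher and 0.159% lower), and 7 had an unadjusted p under 0.05, beside 13% of all. A p that misses the threshold does not show that these groups were alike.

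The other genes of the members' pathways were taken as 5 lists. Their counts stand beside the shares of all genes called, which were 12% higher and 51.8% lower with compound 2, 7.78% and 14.4% with TAOK2 siRNA, and 29.8% and 18.9% in the nucleus against the cytoplasm. The medians over all genes were −0.31, −0.05 and 0.21. Of 11 measured genes that work with OGT and OGA or make their sugar donor, 7 fell and 1 rose with compound 2 (limma, adjusted p under 0.05), with a list median of −0.29. After median centring the same list split into 6 higher and 4 lower, so its direction rests on the scaling. GNPDA1, which takes glucosamine phosphate out of the pathway, fell by 0.97 ± 0.08 with compound 2 (limma adjusted p = 4.33e-07) and by 0.68 ± 0.08 with TAOK2 siRNA (adjusted p = 0.000179). AMDHD2 fell by 0.51 with TAOK2 siRNA, and NAGK, which salvages N-acetylglucosamine, rose by 0.30 (adjusted p = 0.0357). In the nucleus against the cytoplasm 2 of the 11 were higher and 2 lower, with a median of 0.25, close to the 0.21 of all genes. With the batch as a block, all genes called went from 6699 to 9377 of 13751, and those of the list from 4 to 9. PGM3, a phosphomutase of the pathway, stood out among them at 2.19 ± 0.18.

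Among 17 measured genes of the methionine cycle, 6 rose and 7 fell with compound 2, or 10 and 4 after median centring. CBS, which takes homocysteine out of the cycle, fell by 1.88 ± 0.09 with compound 2 and by 0.71 ± 0.09 with TAOK2 siRNA. METTL16, the methyltransferase known to act on the MAT2A RNA, fell by 1.18 ± 0.10 with compound 2 (limma adjusted p = 7.96e-07). With TAOK2 siRNA 5 of the 17 fell and 1 rose, with a list median of −0.11 beside −0.05 over all genes.

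Of 15 genes of the U1 particle, U2AF and partners of the LUC7-like proteins and RBM39, 6 rose and 4 fell with compound 2, or 12 and 1 after median centring. RBM23, a close relative of RBM39, fell by 1.57 ± 0.09. SF1, which binds the branch point, rose by 0.58 ± 0.08. With TAOK2 siRNA 4 fell and none rose, among them U2AF2 by 0.39 ± 0.05 and the U1 protein genes SNRNP70 by 0.45 ± 0.08 and SNRPA by 0.30 ± 0.07. In the nucleus 9 of the 15 were higher and 1 lower, with TIA1 at 4.20 ± 0.49 and SF1 at 2.45 ± 0.19. After median centring 5 were higher and 1 lower.

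For paralogs and partners of LENG8, PABPC1L and AHSA2P, 13 genes were measured. With compound 2, 6 rose and 4 fell, or 11 and 1 after median centring. PABPC4, a cytoplasmic poly(A) binding protein, rose by 0.56 ± 0.06. With TAOK2 siRNA 3 fell and none rose, and with the batch as a block 5 fell. Of all 13106 genes 1885 fell in that contrast, and 2294 with the block. The nuclear to cytoplasmic contrast gave 4 higher and 4 lower. For control siRNA against DMSO 1 gene of the first list rose (GNPDA1) and 1 rose and 1 fell in the methionine list, where 4 were called with the batch as a block. Of all genes 843 were called there, and 1543 with the block. No gene of the other 3 lists was called, and with the block 1 of the paralogs and partners was.

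The list of 26 other genes known for detained introns was the most nuclear of the 5. Of these, 22 were higher in the nucleus and none lower, with a median of 1.77, and 16 were higher and 1 lower after median centring. CCNL2 at 4.37 ± 0.21, CCNL1 at 3.74 ± 0.19, both cyclins of splicing kinases, and RBM5 at 3.35 ± 0.19 had the smallest adjusted p. With compound 2, 11 rose and 9 fell, or 17 and 4 after median centring. NXF1, the export receptor of messenger RNA, rose by 0.75 ± 0.08, while RBM5 fell by 1.94 ± 0.17 and the helicase gene DDX17 by 1.54 ± 0.13.

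In all 5 lists the retained_intron odds were higher in the nucleus, with none called lower: in 6 of 8, 8 of 11, 11 of 14, 7 of 9 and 21 of 22 genes in the order above, beside 57.3% of all genes called higher. The list medians were 3.01, 1.92, 3.24, 3.25 and 3.26, and the median over all genes was 1.66. With compound 2 those odds were called in both directions in every list, for example UAP1 at 1.18 ± 0.18 and NAGK at −1.23 ± 0.26, or TRA2A at 1.69 ± 0.15 and CLK3 at −1.34 ± 0.22. With TAOK2 siRNA none was called in any list. SNRNP70, at 0.86 ± 0.28, and CLK1, at 0.55 ± 0.17, had adjusted p = 0.223 and 0.198 in limma.

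The genes most like the members in their retained_intron odds were found over the 10 groups, each table centred on its own mean. Among 1112 genes with enough retained_intron RNA in both tables, the Pearson r with the members' mean profile was 0.987 for SF3B2, 0.985 for ZNF692, and 0.980 for ADAMTS10, PLEKHG2 and RARS. The median r of all candidates was 0.73, and all profiles share the split of nucleus and cytoplasm among these groups. The profile is the mean of 8 members, each of which is part of it, so a member's r cannot be set beside that of an outside gene. Of the members, MAT2A had an r of 0.994, AHSA2P 0.988, LUC7L 0.952, ARGLU1 and OGT 0.901 each, and RBM39 0.800. LUC7L3 at 0.386 and LENG8 at −0.576 did not follow it, and both have little RNA of that type.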

How the data were processed

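Levels are TPM that the authors deposited per transcript in 2 tables of 12 libraries each. They were made with kallisto on GRCh38.p14, per the submitters' processing notes, with the version and the annotation not given in the sources used here. Each column sums to 1000000 TPM, so depth is unknown from the tables, and no interval from counts can be given. Of 188753 transcripts, 169797 matched GENCODE 29 by identifier, which gave gene, type and structure. TPM was summed by gene and class. Contrasts were fitted by limma 3.58.1 (R 4.3.3, trend and robust) over all genes or transcripts with a mean of at least 1 TPM, on log2(TPM + 1), which understates changes of low genes. Class odds were log2 of class TPM + 0.5 over the rest + 0.5. P-values were adjusted by Benjamini-Hochberg at 0.05 over the whole table. The fits were tested on simulated data.

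The members, the lists and the rule for named genes (all members, their transcripts with a mean of at least 5 TPM, up to 3 genes a list and contrast by smallest adjusted p, and the 5 most like genes) were chosen with earlier results of these data known. The labels give each library's batch, which is its replicate number. Deviations from group means correlated at 0.531 to 0.837 within a batch of the fractionation table, where 2 libraries a group mirror each other, and at −0.302 to 0.639 in the whole-cell table. In these 12 of 12 and 11 of 12 libraries matched their own batch best. The batch was used as a block in an alternative. Other alternatives were other pseudocounts, no filter on low values, median centring, coding transcripts as the comparison class and leaving out each library. The intron-bearing class was added after the data had been seen. Some genes of the lists are counted but not reported by name here.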

Additional observations from a re-analysis of the deposited data

How the results depend on the processing

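Counts of members called moved by over 1.5 times in these cases. For TAOK2 siRNA in whole cells at the gene level, 2 members became 0 without the filter on low values, and 0 to 1 when each library was left out in turn. For the retained_intron odds with compound 2, 5 became 9 with the intron-bearing class. For TAOK2 siRNA at the transcript level, 0 became 1 with the replicate block and 0 to 1 when each library was left out, with 1 call without the TAOK2 siRNA library of batch A. For TAOK2 siRNA in nuclear RNA the block, added after the data had been seen, changed 0 members called to 6 and all genes called from 2 to 811. The block moved no other count of members called by that much. It changed the count over all genes for control siRNA against DMSO from 843 to 1543, beside 416 without the filter, and over all genes for the retained_intron odds with TAOK2 siRNA a pseudocount of 0.1 TPM changed 47 to 5. Without the filter, transcripts called went from 2259 to 1235 for TAOK2 siRNA and from 19675 to 33531 for nucleus against cytoplasm, and genes called for the change of that ratio went from 0 to 10. With the block, genes called for sugar donor synthesis in nucleus against cytoplasm went from 4 to 9, and all genes called in that contrast from 6699 to 9377.

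The sign turned in 2 results. OGA with compound 2 went from −0.29 to 0.22 after median centring (limma adjusted p = 0.0498). LENG8 odds in nucleus against cytoplasm went from −4.07 to 1.27 with the intron-bearing class (limma adjusted p = 0.195). With control siRNA the retained_intron level of LENG8 was 0 TPM in the cytoplasm and 0.188 to 0.955 TPM in the nucleus. The −4.07 therefore rests on the TPM added to both parts of the odds and does not show a lower nuclear share. When a library was left out, 6 to 8 members in place of 8 were called at the gene level with compound 2. Over all genes that count went from 8354 to between 7786 and 8606. With every library kept, 7 of 8 members were called for retained_intron odds in nucleus against cytoplasm, 6 higher and 1 lower. Of all 7435 genes 60.7% were called (57.3% higher and 3.43% lower). Leaving out a fractionation library leaves a lone library in its group, so no counts are given for those fits. The cause of the other moves was not tested. Fractionation groups of 2 libraries and the division of reads between overlapping transcripts limit the precision.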
